A study of Homo sapiens with 6 samples.

Results

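The genes described here encode the heat shock proteins and cochaperones of the cytosol, with the heat shock factors that control many of them. They were chosen by name, as the rows of the count table whose symbol was one of 43 listed symbols, a rule that uses no measured value. The list of symbols was, however, drawn up with earlier results of these data known. All 43 symbols were found, on 44 of the 25445 rows, because the symbol HSPA14 stood on 2 rows, and all 43 genes passed the filter on low counts. By class, they are 2 HSP90 genes, 5 HSP70 genes, 3 HSP110 genes, 3 small heat shock genes, 11 J proteins, 5 BAG proteins, 11 other cochaperones and 3 genes of the heat shock factors and their binding protein. RNA-seq had been performed in MHCC-97H, an established human liver cancer cell line, after 16 h with 10 μM of 6j, a compound derived from sophoridine (an alkaloid of plants), or after 16 h with solvent alone. Each group had 3 libraries, numbered as replicates 1 to 3, and both groups were the same line in the same medium with serum and antibiotics, at 1 dose and 1 time. Nothing in the labels says that the libraries came from separate cultures, so the p-values measure only the spread between these libraries, which may be technical.

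Heat shock proteins are molecular chaperones, which bind unfolded or partly folded proteins and help them to reach or keep their working shape. HSP70 binds short exposed stretches of a client under the control of J proteins, which deliver clients and start ATP hydrolysis, and of nucleotide exchange factors such as the HSP110 and BAG proteins, which release them. HSP90 then acts on clients that are nearly folded, among them many kinases and steroid receptors, with cochaperones that load clients or pace its ATPase. Small heat shock proteins hold unfolded proteins without using ATP. Heat shock factor 1 (HSF1) raises the inducible members of these families when unfolded protein accumulates, by binding repeats of the letters nGAAn in their promoters.

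The total count was 31533403 to 38018349 per library. Levels are given as CPM, the count of a gene per 1000000 counts of the TMM normalized library. The 15957 rows that passed the filter went through edgeR's quasi-likelihood test, with Benjamini-Hochberg adjustment over all of them, and SE stands for the standard error of a log2 fold change. A gene rose or fell where its adjusted p-value was under 0.05, and was called a DEG where its fold change was also above 1.5. Over all rows, libraries of the same replicate number deviated together, although over the 43 genes alone they did not in each number. The value from a fit with replicate numbers as a block is therefore given where it changed a call. Of 12 hepatocyte and liver tumour markers, 3 passed the filter. KRT8, a keratin of simple epithelia, fell from 605 to 404 CPM (mean, n = 3 each, adjusted p = 0.0211), KRT18, its partner keratin, went from 429.8 to 344 CPM and fell with the block and in DESeq2 (log2 fold change −0.32, adjusted p = 0.0661 in edgeR without the block, 0.00168 with it and 0.0152 in DESeq2), and HNF4A was at 0.969 and 1.12 CPM. The means of ALB, AFP, APOA1, APOB, TTR, SERPINA1, GPC3, EPCAM and KRT19 were 0 to 0.142 CPM in the groups, so the defining markers of hepatocytes were at or near 0. Of 11 immune, stromal and endothelial markers, 6 passed the filter and none of these 6 passed the test in edgeR or DESeq2 without a block (0 at an unadjusted p under 0.05). With the block 1 of the 6 fell, COL3A1, a collagen of fibroblasts (log2 fold change −0.36, adjusted p = 0.00885, with groups that overlap). PTPRC, CD3E and COL1A2 had no count, and COL1A1 was at 244 and 231 CPM. The part of such differences in the results was not tested.

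Of the 43 genes, 11 fell in 6j treated cells, 1 rose and 31 did not pass the test. Over all rows tested, 4.37% fell and 4.79% rose. Those that fell were both HSP90 genes (HSP90AA1, HSP90AB1), 4 cochaperones (AHSA1, STIP1, FKBP4, CDC37), the constitutive HSP70 gene HSPA8, the HSP110 gene HSPA4, the small heat shock gene HSPB1, the J protein gene DNAJA1 and BAG3. The J protein gene DNAJB2 rose. The log2 fold change was below 0 for 37 genes and above 0 for 6, with a median of −0.19, whereas the median over all rows tested was 0. In 22 genes the 3 libraries of 6j treated cells lay below all 3 libraries of non-treated cells, in 5 they lay above, and in 16 the groups overlapped. Over all rows tested, 15.8% lay below and 16% lay above. There were 2 DEGs, HSPA8 (lower) and DNAJB2 (higher), against 1.12% of rows that were lower DEGs and 2.48% that were higher DEGs. When replicate numbers entered the fit as a block, 19 genes fell and 4 rose, against 13.9% and 13.1% of all rows. DESeq2 without a block gave 14 lower and 1 higher, against 8.01% and 8.22% of rows. CPM is a share of the library, and in these bulk samples fewer cells with a transcript and less of it per cell cannot be told apart.

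Of the 43 genes, 34 had a mean of at least 50 CPM, as did 5029 of the 15957 rows tested. This limit was chosen after the data had been seen, because calls were more frequent among rows with more counts. Of the 34 members above it, 11 fell (32.4%) and 0 rose, while 8.07% of the 5029 rows above it fell and 7.85% rose. With the replicate block, 16 of the 34 fell and 2 rose, against 24% and 20.2% of the 5029 rows. The count also rested on single libraries. Leaving out non-treated replicate 1 left 1 member lower, AHSA1, and leaving out 6j replicate 2 left 3, while the calls over all rows dropped from 1462 to 202 and 217. Leaving out non-treated replicate 2 left 7 members lower (716 calls over all rows). DNAJB2 lost its call when non-treated replicate 1 or 2 or 6j replicate 2 or 3 was left out, and then 0 members were higher.

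**Figure D1:**
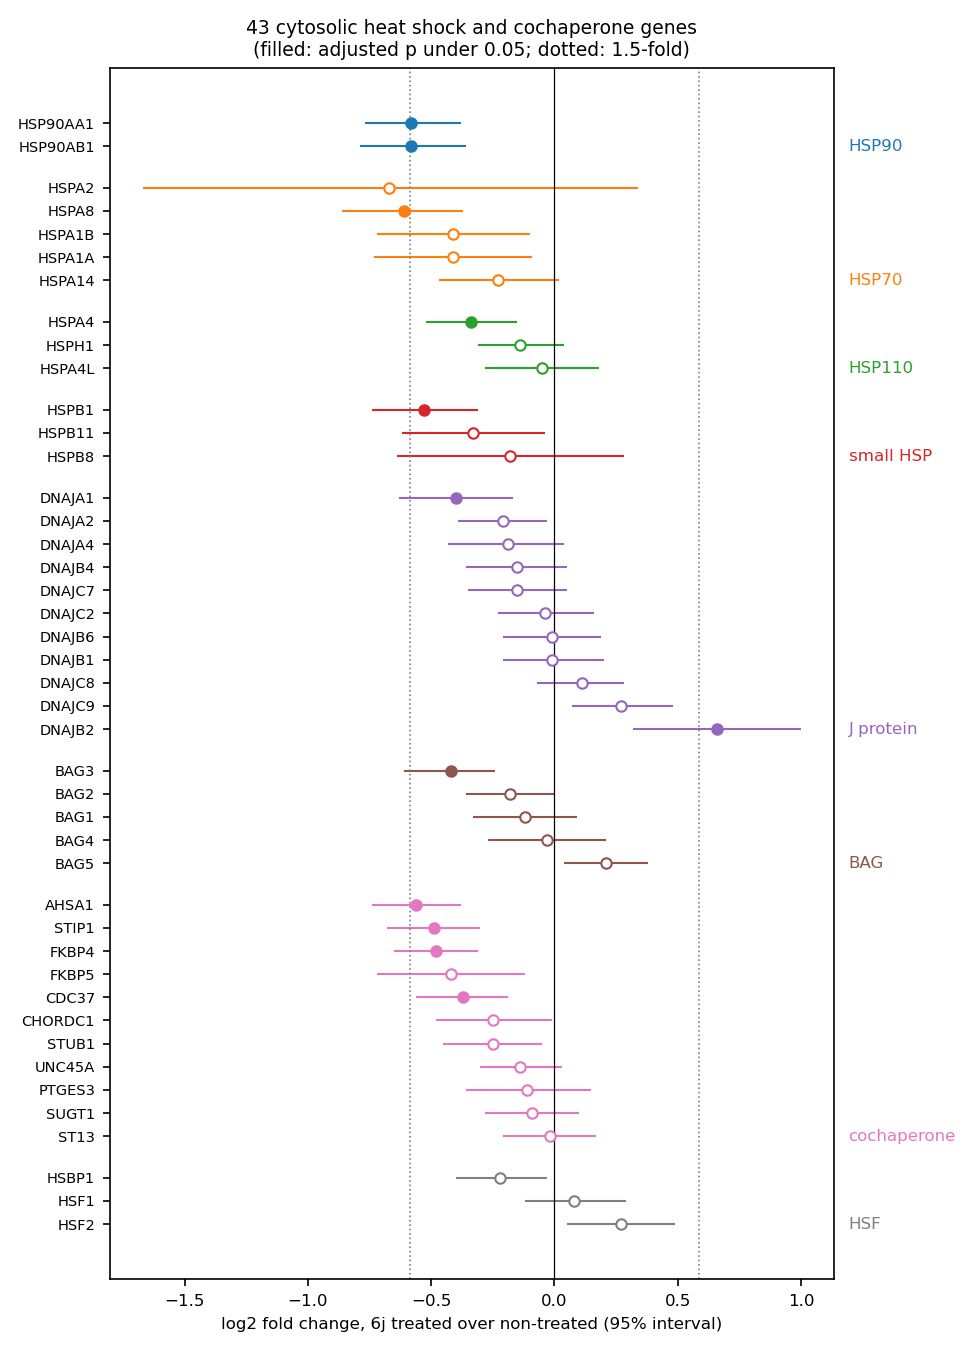
Log2 fold change of each of the 43 genes (x axis, 6j treated over non-treated cells) with its 95% interval from edgeR, grouped by class (colours, right) and ordered by value within a class. Filled points passed the test and dotted lines mark a 1.5-fold change. The 11 filled points on the left lie between −0.61 and −0.34, the 1 on the right is DNAJB2 at 0.66, and the long bar belongs to HSPA2, which is near 1 CPM.

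The summed level of these 43 genes went from 12495 ± 333 CPM to 9472 ± 291 CPM (SD, n = 3 each), that is from 1.25% to 0.947% of the TMM normalized library, a change of −24.2%. These sums are counts of fragments and are not corrected for gene length, and they are described without a test. The HSP90 pair went from 4600 ± 85.5 to 3085 ± 199 CPM (SD, n = 3 each), a change of −32.9%. The sum of the HSP70 genes changed by −30.2% and that of the small heat shock genes by −24.9%. The cochaperones changed by −16.5% and the HSP110 genes by −14.2%. The sums of the J proteins (−8.04%), BAG proteins (−7.15%) and heat shock factors (−2.92%) changed least. The libraries of the groups did not overlap in 7 of the 8 classes, and those of the heat shock factors did, by less than 1 CPM.

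**Figure D2:**
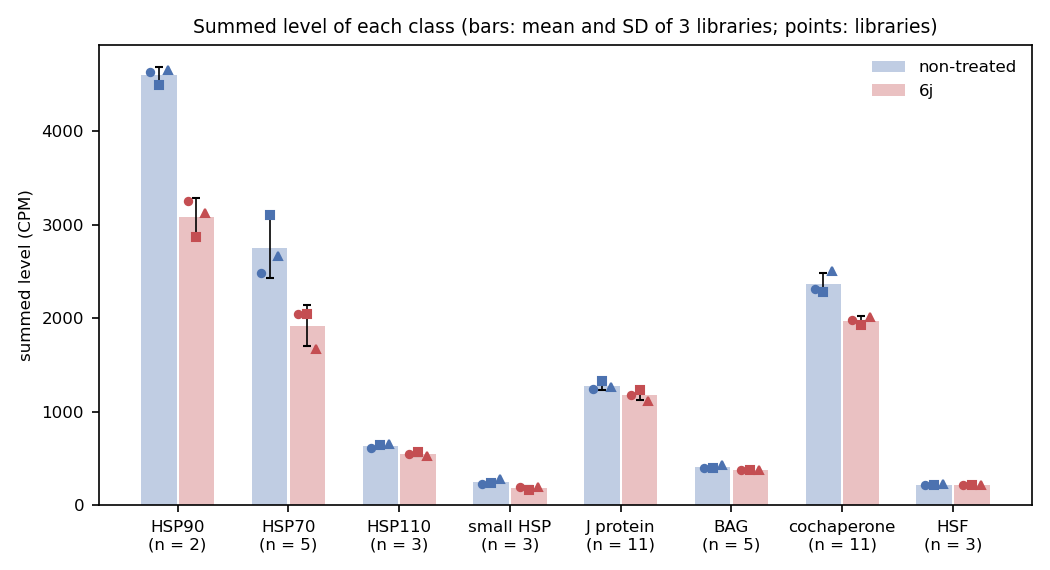
Summed level of each class in CPM (y axis, from 0) in non-treated (blue) and 6j treated (red) cells, with the number of genes in brackets. Bars are means, error bars the SD of 3 libraries, and points the libraries (circle, square and triangle for replicates 1, 2 and 3). The HSP90 pair takes the largest share and goes from 4600 to 3085 CPM, while the 3 heat shock factor genes stay near 218 and 212 CPM.

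Per kilobase of exon, HSP90AB1 stood highest of the 43 in non-treated cells, at 901 CPM per kb, followed by HSP90AA1 (365), HSPA8 (316), HSPA1A (253) and HSPA1B (223). The 10 members with the highest levels, at 81.1 CPM per kb or more, had a median log2 fold change of −0.45, and 6 of them fell. The other 33 had a median of −0.15, and 5 of them fell and 1 rose. The split used non-treated levels, which also enter the fold changes, so it is not independent of them. Calls over all rows at such levels per kb were not counted. Reads of the near-identical pair HSPA1A and HSPA1B could be shared between them, so their levels are uncertain.

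Because HSF1 binds repeats of the unit GAA and its complement TTC, the promoters were searched for these letters. RefSeq promoters on GRCh38.p14, from 250 bases before to 50 bases after the gene start, were available for 36 of the 43 members, matched by symbol. The 3-unit form (GAA, TTC and GAA, or TTC, GAA and TTC, with any 2 bases between units, on either strand) was found in 4 of these 36 windows (11.1%), against 0.487% of 27305 promoters and 0.345% of 10440 promoters of genes tested. The 2-unit form (GAA and TTC in either order, with any 2 bases between them), which every 3-unit match also contains, was found in 10 of the 36 (27.8%), against 13.7% of all promoters and 10% of those of genes tested. The windows of HSP90AA1, HSP90AB1, HSPH1 and DNAJB1 held neither form, which says only that these letters are not in these windows. No other start of a gene was searched. The 250 bases before the start used were 102139750 to 102139999 of chromosome 14 for HSP90AA1. For DNAJB1 they were 14529272 to 14529521 of chromosome 19. Promoters at starts further inside these genes were therefore not covered. A match is a description and not evidence of binding.

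The 4 members with the 3-unit form were HSPA8, CHORDC1, DNAJB6 and DNAJA1, and their sites are shown because they include genes that fell and genes that did not. Each site is given 5′ to 3′ on the strand of its gene, with the matching letters in capitals. The CHORDC1 site joins 3 overlapping 3-unit matches, from base −60 to base −38 relative to the start. The HSPA8 sites lie at −230 to −218 and at −55 to −43, the DNAJB6 site at −131 to −119, and the DNAJA1 site at 4 to 16, behind the start. The 2-unit sites of HSPA1A, HSPA1B and HSPB1 are added as those of the inducible genes described below. Those of DNAJB6, HSPA1A, HSPA1B and HSPB1 lie outside the exons of their gene in GENCODE version 29, and those of HSPA8, CHORDC1 and DNAJA1 within an exon of at least 1 transcript.
HSPA8 (3 unit, chr11:123062346-123062374, reverse strand): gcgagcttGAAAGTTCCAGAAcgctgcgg
HSPA8 (3 unit, chr11:123062171-123062199, reverse strand): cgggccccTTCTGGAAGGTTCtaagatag
CHORDC1 (3 unit, chr11:90223084-90223112, reverse strand): ccgGAAAATTCGCGAAGGTTCCTGAAacg
DNAJB6 (3 unit, chr7:157336865-157336893, forward strand): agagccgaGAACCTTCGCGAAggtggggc
DNAJA1 (3 unit, chr9:33025268-33025296, forward strand): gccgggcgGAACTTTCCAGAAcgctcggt
HSPA1A (2 unit, chr6:31815427-31815454, forward strand): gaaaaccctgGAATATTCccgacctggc
HSPA1B (2 unit, chr6:31827623-31827650, forward strand): gaaacccctgGAATATTCccgacctggc
HSPB1 (2 unit, chr7:76302481-76302508, forward strand): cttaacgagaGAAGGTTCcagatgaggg

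HSPA8, with 2 sites, fell, and DNAJA1 fell as well, whereas CHORDC1, with the longest site, fell only with the block and DNAJB6 had a log2 fold change of −0.01. Of the 10 members that fell and had a window, 2 held the 3-unit form (20%), and of the 25 that did not pass and had a window, 2 did (8%), one of which was CHORDC1. The 2-unit form was in 3 of the 10 (30%) and in 7 of the 25 (28%).

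Both HSP90 genes fell, by nearly the same proportion. HSP90AB1 encodes the constitutive form (chromosome 6, 44246166 to 44253888, GRCh38). Its level was 2749, 2627 and 2678 CPM in non-treated and 1909, 1646 and 1842 CPM in 6j treated cells, in the order of replicates 1, 2 and 3, a log2 fold change of −0.58 (SE 0.10, adjusted p = 0.0113). HSP90AA1, the more stress-responsive form (chromosome 14, 102080738 to 102139699), went from 1891, 1874 and 1979.8 CPM to 1349, 1221 and 1286 CPM, a log2 fold change of −0.58 (SE 0.09, adjusted p = 0.00891). In both genes, all 6j treated libraries lay below all non-treated libraries. The ratio of HSP90AA1 to HSP90AB1 was −0.49 on the log2 scale in non-treated and −0.48 in 6j treated cells (n = 3 each, exact two-sided permutation test, p = 0.9). Of the 75-base windows of the transcripts, 6.11% of HSP90AA1 and 5.35% of HSP90AB1 also occurred in other genes. Without non-treated replicate 1, neither was called (adjusted p = 0.0663 for HSP90AB1 and 0.0528 for HSP90AA1), at log2 fold changes of −0.56 and −0.58.

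Of the cochaperones outside the J and BAG families, most of which act on HSP90, 4 of 11 fell and none of the other 7 passed the test, and all 11 log2 fold changes were below 0 (median −0.25). AHSA1, which stimulates the HSP90 ATPase (chromosome 14, 77457870 to 77469474), was at 167, 169 and 167 CPM in non-treated and 121, 114 and 106 CPM in 6j treated cells. Its non-treated libraries lay within 2 CPM of each other, and its log2 fold change was −0.56 (SE 0.08, adjusted p = 0.00696). It was the only one of the 43 genes called whichever of the 6 libraries was left out. STIP1, the adaptor that links HSP70 to HSP90 (chromosome 11, 64185272 to 64204543), went from 377, 371 and 386 CPM to 287, 245 and 275 CPM (log2 fold change −0.49, SE 0.09, adjusted p = 0.0119). FKBP4, an immunophilin found in steroid receptor complexes (chromosome 12, 2794953 to 2805423), went from 371, 362 and 389 CPM to 273, 266 and 267 CPM (log2 fold change −0.48, SE 0.08, adjusted p = 0.01). CDC37, which brings kinases to HSP90 (chromosome 19, 10391134 to 10420121), went from 137, 127 and 121 CPM to 103, 94.5 and 99.9 CPM (log2 fold change −0.37, SE 0.08, adjusted p = 0.0244). The groups did not overlap in any of these 4 genes. Without non-treated replicate 1, STIP1 (adjusted p = 0.0681), FKBP4 (0.0592) and CDC37 (0.128) were not called. Without 6j replicate 2, STIP1 (0.0645), FKBP4 (0.0569) and CDC37 (0.114) were not called either, and CDC37 was also lost without non-treated replicate 2 (0.0669).

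When the block was added, 3 more cochaperones fell. FKBP5, the immunophilin that dampens glucocorticoid receptor signalling, was at 39.9, 38.3 and 33.8 CPM in non-treated and 29.3, 31.5 and 22.9 CPM in 6j treated cells (log2 fold change −0.42, adjusted p = 0.0795 without and 0.00386 with the block). DESeq2 called FKBP5 without a block as well (adjusted p = 0.0327). STUB1, the ubiquitin ligase that marks chaperone clients for degradation, was at 49.2, 47.7 and 50.04 and 42.8, 37.6 and 43.1 CPM (log2 fold change −0.25, adjusted p = 0.112 and 0.0241). CHORDC1, an HSP90 binding protein, was at 98.9, 113 and 128 and 89.7, 100.4 and 96.8 CPM (log2 fold change −0.25, adjusted p = 0.172 and 0.0237). STUB1 was not called in DESeq2 with the block (adjusted p = 0.0581). In FKBP5 and STUB1 the groups did not overlap, and in CHORDC1 non-treated replicate 1 lay below 6j replicate 2. The other 4 cochaperones passed neither fit. PTGES3, also called p23, which stabilizes the closed form of HSP90, had a log2 fold change of −0.11 with a 95% interval from −0.36 to 0.15. ST13, which slows the release of clients from HSP70, had −0.02 with an interval from −0.21 to 0.17, and 22.9% of its 75-base windows also occurred in other genes. The log2 fold change of AHSA1 lay outside both of these intervals, but the difference between these genes was not tested. UNC45A, a chaperone of myosin, had −0.14, and SUGT1, an adaptor of HSP90, had −0.09.

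**Figure D3:**
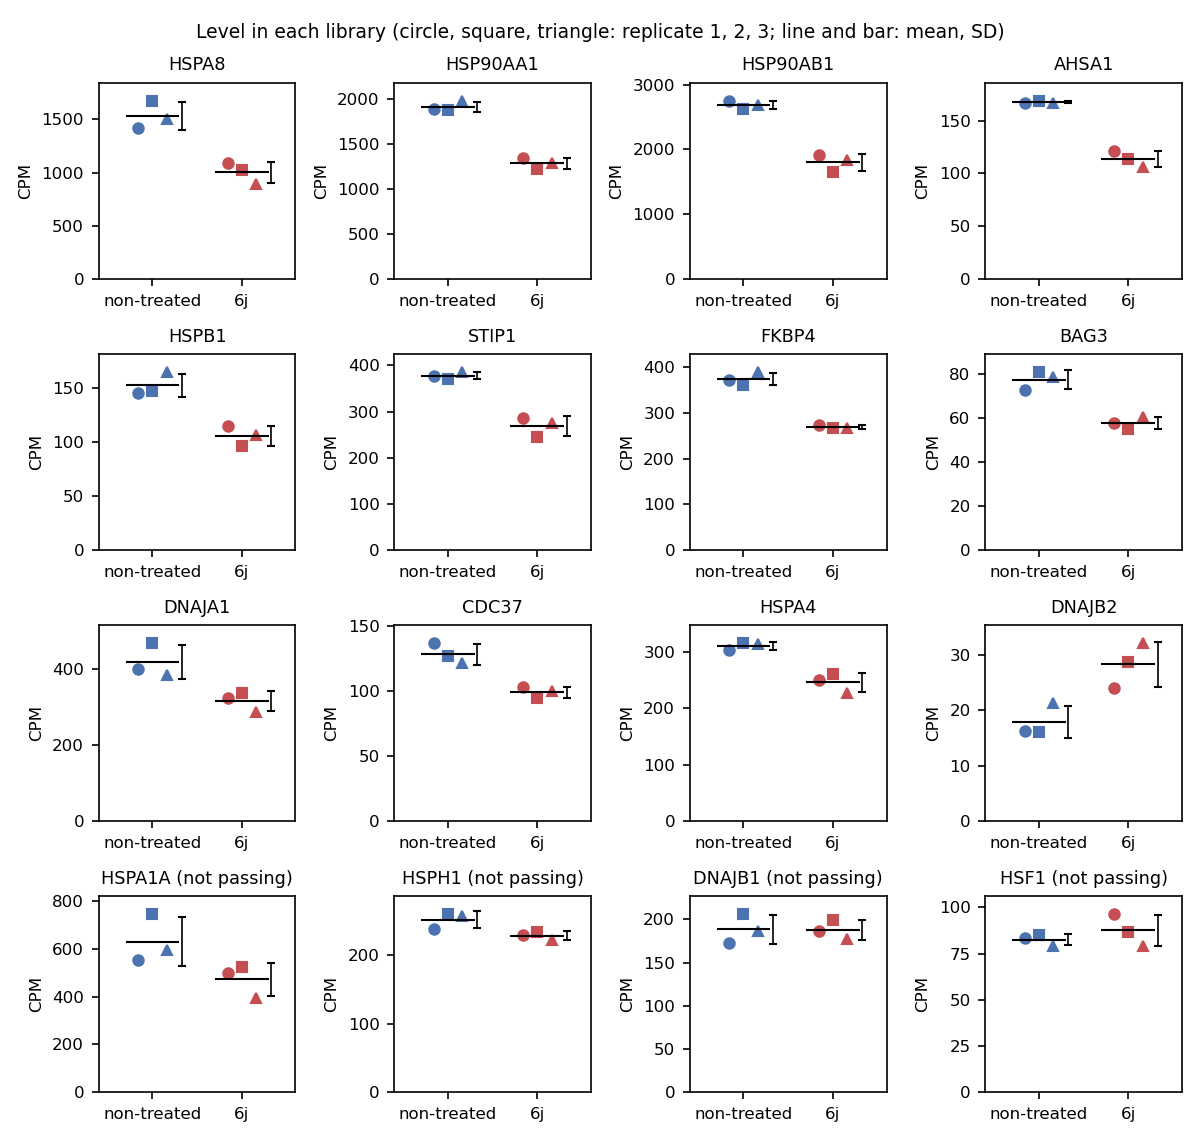
Level of the 12 genes that passed the test, from the largest fall to the 1 rise, and of 4 that did not (bottom row), in CPM from 0 (y axis), in each library. Symbols mark replicates 1, 2 and 3, lines the mean and bars the SD of 3 libraries. In the 12 genes the blue and red points do not overlap, while in DNAJB1 and HSF1 they do.

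HSPA8, the constitutive HSP70, fell. The stress-inducible pair HSPA1A and HSPA1B was lower by a smaller proportion, which passed in DESeq2 and with the replicate block but not in edgeR without it. HSPA8 (chromosome 11, 123057489 to 123063230), whose promoter sites are shown above, was at 1418, 1674 and 1502 CPM in non-treated and 1088, 1026 and 892 CPM in 6j treated cells. The log2 fold change was −0.61 (SE 0.11, adjusted p = 0.0125), and the libraries of the groups did not overlap. The call of HSPA8 was lost without non-treated replicate 1 (adjusted p = 0.0528) and without 6j replicate 2 (0.0633). HSPA1A (chromosome 6, 31815464 to 31817946) was at 552, 744 and 592 CPM and 497, 524 and 395 CPM, with a log2 fold change of −0.41 (SE 0.14, adjusted p = 0.103, and 0.00693 with the block). HSPA1B, its neighbour (chromosome 6, 31827735 to 31830255), was at 482, 662 and 544 CPM and 442, 467 and 364 CPM (log2 fold change −0.41, adjusted p = 0.0971, and 0.011 with the block). DESeq2 without a block called both genes of the pair (adjusted p = 0.0226 for HSPA1A and 0.0214 for HSPA1B). In all 3 genes non-treated replicate 2 was the highest library and 6j replicate 3 the lowest, and the groups did not overlap. Of the 75-base windows of HSPA1A, 71.2% also occurred in HSPA1B, and with the pair summed into 1 row the log2 fold change was −0.41 (adjusted p = 0.103).

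The inducible pair was also compared with HSPA8 within each library. The log2 ratio of the summed pair to HSPA8 was −0.46, −0.25 and −0.40 in non-treated and −0.21, −0.05 and −0.23 in 6j treated cells. The mean difference was 0.21, with 0.24, 0.20 and 0.17 in the 3 replicate numbers. The exact two-sided permutation test gave p = 0.1, the smallest possible with 3 against 3 libraries (0.2 after Benjamini-Hochberg adjustment over the 4 ratios tested), and the exact sign-flip test over the 3 pairs p = 0.25, also the smallest possible. The highest non-treated ratio, −0.25 in replicate 2, lay just below the lowest 6j treated ratio, −0.23 in replicate 3.

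HSPA2, an HSP70 best known from the testis, had 0.688 to 2.38 CPM over the 6 libraries, and its log2 fold change of −0.67 had a 95% interval from −1.67 to 0.34, so no change was detectable at this depth. HSPA14, an HSP70 relative that works at the ribosome, had a log2 fold change of −0.23 (adjusted p = 0.22). A second row carrying the symbol HSPA14, which shares exons with the first and is named MSANTD7 in another gene list, had 0.15 (adjusted p = 0.337). It may therefore be a separate gene, and the reads of the locus could have been split. HSPA6, the strictly heat-inducible HSP70, which is not among the 43 genes, was at 1.13 ± 0.592 and 1.45 ± 0.689 CPM (SD, n = 3 each) and did not pass the test (adjusted p = 0.702).

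Among the HSP110 genes, which act as nucleotide exchange factors of HSP70, 1 of 3 fell. HSPA4 (chromosome 5, 133051962 to 133106449) was at 302, 315 and 314 CPM in non-treated and 249, 261 and 227 CPM in 6j treated cells (log2 fold change −0.34, SE 0.08, adjusted p = 0.0359). HSPH1, the heat-inducible member (chromosome 13, 31134974 to 31162388), was at 236, 259 and 256 CPM and 229, 233 and 221 CPM, a log2 fold change of −0.14 with a 95% interval from −0.31 to 0.04 (adjusted p = 0.297). HSPA4L had a log2 fold change of −0.05 (interval −0.28 to 0.18). The groups did not overlap in HSPA4 and HSPH1 and overlapped in HSPA4L. The call of HSPA4 was lost whichever library was left out (adjusted p = 0.0558 to 0.123) and when library totals alone set the scale (0.0536). The log2 ratio of HSPH1 to HSPA4 went from −0.35, −0.28 and −0.29 to −0.12, −0.16 and −0.04, a mean difference of 0.20 (exact two-sided permutation test, p = 0.1, the smallest possible, and 0.2 adjusted over the 4 ratios). The ratio was higher in each of the 3 replicate numbers, by 0.23, 0.12 and 0.25.

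Of the small heat shock genes, HSPB1 fell. HSPB1, also known as HSP27 (chromosome 7, 76302544 to 76304295), was at 145, 147 and 165 CPM in non-treated and 115, 96.1 and 106 CPM in 6j treated cells (log2 fold change −0.53, SE 0.09, adjusted p = 0.0129). All 6j treated libraries lay below all non-treated libraries. The call was lost without non-treated replicate 1 (adjusted p = 0.058) or 6j replicate 2 (0.0695). HSPB8, the partner of BAG3, overlapped between the groups, with 43.02, 49.1 and 68.7 CPM in non-treated and 46.6, 39.0 and 56.6 CPM in 6j treated cells, and its log2 fold change of −0.18 did not pass the test (adjusted p = 0.63, interval −0.64 to 0.28). HSPB11, which despite its name is a subunit of the intraflagellar transport complex, was at 33.4, 37.7 and 41.8 CPM and 26.0, 29.5 and 34.2 CPM. Its groups overlapped, and its log2 fold change of −0.33 passed only with the replicate block (adjusted p = 0.139 without and 0.00949 with it). It was lower in 6j treated cells in each of the 3 replicate numbers.

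The J proteins had the widest spread and the only member that rose. Of 11, 1 fell, 1 rose and 9 did not pass the test, with a median log2 fold change of −0.04. DNAJA1, an abundant partner of HSP70 (chromosome 9, 33025211 to 33039907), was at 401, 469 and 385 CPM in non-treated and 325, 338 and 288 CPM in 6j treated cells (log2 fold change −0.40, SE 0.10, adjusted p = 0.0436). Its call was lost whichever library was left out (adjusted p = 0.0624 to 0.132), with library totals alone (0.0597) and without robust estimation of the spread (0.0572). DNAJB2, which binds ubiquitin and directs clients to degradation (chromosome 2, 219279267 to 219286900), was at 16.2, 16.1 and 21.3 CPM and 24.1, 28.7 and 32.1 CPM. It rose by a log2 fold change of 0.66 (SE 0.15, adjusted p = 0.029), and the groups did not overlap, with 21.3 CPM in the highest non-treated and 24.1 CPM in the lowest 6j treated library. Without non-treated replicate 1 or 2 or 6j replicate 2 or 3 it was not called (adjusted p = 0.062 to 0.128).

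The heat-inducible DNAJB1 stayed within its replicate spread. DNAJB1, the main class B partner of inducible HSP70 (chromosome 19, 14514770 to 14529770), was at 173, 206 and 187 CPM in non-treated and 186, 199.7 and 177 CPM in 6j treated cells. The log2 fold change of −0.01 had a 95% interval from −0.21 to 0.20 (adjusted p = 0.973), and its sign turned to 0.01 with library totals alone. DNAJB6, which suppresses aggregation, had −0.01, with an interval from −0.21 to 0.19, and turned to 0.01 on the same scale. The log2 ratio of DNAJB1 to DNAJB6 was 1.17 in both groups (exact two-sided permutation test, p = 1, n = 3 each). With the replicate block, DNAJA2, at 96.2, 90.1 and 93.6 CPM and 80.9, 85.9 and 75.5 CPM, fell (log2 fold change −0.21, adjusted p = 0.137 without and 0.0325 with it), but not in DESeq2 with the block (adjusted p = 0.0598). DNAJC9, which also carries histones, rose with the block, from 82.2, 71.8 and 78.9 CPM to 94.99, 101 and 85.2 CPM (log2 fold change 0.27, adjusted p = 0.0976 and 0.0206), and shares exons with MRPS16. DNAJA4 (−0.19), DNAJB4 (−0.15), DNAJC7 (−0.15), DNAJC2 (−0.04) and DNAJC8 (0.11) passed neither fit.

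BAG3, the inducible BAG protein that joins HSP70 to selective autophagy, was the only 1 of 5 BAG genes to fall (chromosome 10, 119651370 to 119677819). It was at 73.0, 81.0 and 78.7 CPM in non-treated and 58.0, 55.1 and 60.5 CPM in 6j treated cells, a log2 fold change of −0.42 (SE 0.08, adjusted p = 0.0164), with no overlap between the groups. The call was lost without non-treated replicate 1, 2 or 3 or 6j replicate 2 (adjusted p = 0.0528 to 0.0867). BAG5 lay on the other side, at 79.8, 76.3 and 76.9 CPM in non-treated and 88.0, 93.9 and 87.6 CPM in 6j treated cells, and rose only with the block (log2 fold change 0.21, adjusted p = 0.111 without and 0.0251 with it), although not in DESeq2 with the block (adjusted p = 0.0555). BAG1 (−0.12), BAG2 (−0.18) and BAG4 (−0.03) passed neither fit.

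The heat shock factors themselves did not pass the test. HSF1, the main regulator of the inducible genes, was at 83.5, 84.9 and 79.2 CPM in non-treated and 96.3, 86.9 and 79.2 CPM in 6j treated cells, a log2 fold change of 0.08 with an interval from −0.12 to 0.29 (adjusted p = 0.61). The activity of HSF1 is set largely by its location and modification, which a count of its mRNA does not measure. HSF2, a related factor, was at 23.4, 21.0 and 22.7 CPM and 25.8, 27.3 and 27.9 CPM and rose only with the block (log2 fold change 0.27, adjusted p = 0.115 without and 0.0495 with it). HSF2 was not called in DESeq2 with the block (adjusted p = 0.129) or in any other of the 11 alternative fits to all 6 libraries. HSBP1, a small protein that binds HSF1, was at 107, 113 and 119 CPM and 91.8, 97.0 and 103 CPM and fell only with the block (log2 fold change −0.22, adjusted p = 0.128 and 0.0185). The groups overlapped in HSF1 and did not in HSF2 and HSBP1.

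Other chaperone genes, from lists written from general knowledge with earlier results of these data known, were set beside the 43. Of 17 other HSP90 and HSP70 cochaperones tested, 2 fell and 0 rose (median −0.12), namely NUDC, which binds HSP90 (log2 fold change −0.35, adjusted p = 0.0304), and PPP5C, a phosphatase that binds HSP90 (−0.44, adjusted p = 0.04), and 5 fell with the block. Of 17 other cytosolic HSP70, small heat shock and J proteins tested, 0 passed edgeR's test (median −0.04), 3 had an unadjusted p under 0.05, DESeq2 called 1, which was higher, and 3 rose with the block. For comparison, 4.37% of all rows tested fell and 4.79% rose in edgeR without the block. With the block 13.9% fell and 13.1% rose, and DESeq2 without a block called 8.22% higher. Of 10 further genes linked to HSF1, 2 fell, the mitochondrial pair HSPE1 (−0.73, adjusted p = 0.0036) and HSPD1 (−0.33, adjusted p = 0.0468). HSPD1 lost its call whichever library was left out, and HSPE1 kept it in all 6 of these fits. NUDC was called in 1 of the 6 and PPP5C in 2. In the cytosol, all 8 subunits of the chaperonin TRiC, which folds actin and tubulin, fell, with log2 fold changes from −0.56 to −0.34. The 11 members that fell span −0.61 to −0.34, nearly the same range.

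The chaperones of other compartments were divided. Of 12 mitochondrial chaperone and protease genes, 3 rose and 5 fell (median −0.14), and among those that rose was HSPA9, the mitochondrial HSP70 (log2 fold change 0.38, adjusted p = 0.0273). TRAP1, the mitochondrial HSP90, fell (−0.62, adjusted p = 0.00934). Of 17 chaperone genes of the endoplasmic reticulum, 3 rose and 3 fell (median 0.01), and with the block 6 rose and 6 fell, which added CANX, HYOU1 and P4HB to those that rose and CALR, PDIA4 and SIL1 to those that fell. With the block, that is 35.3% in each direction, against 13.1% of all rows that rose and 13.9% that fell. HSPA5, its HSP70, rose (0.40, adjusted p = 0.033) and HSP90B1, its HSP90, had −0.04 (adjusted p = 0.869), whereas HSPA8 and both cytosolic HSP90 genes had −0.61 and −0.58. Of the 6 fits with 1 library left out, 1 called HSPA5, 2 called HSPA9 and 4 called TRAP1. These lists were described by counts, the differences between them were not tested, and HSPE1 and HSPD1 stand on 2 of them.

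**Figure D4:**
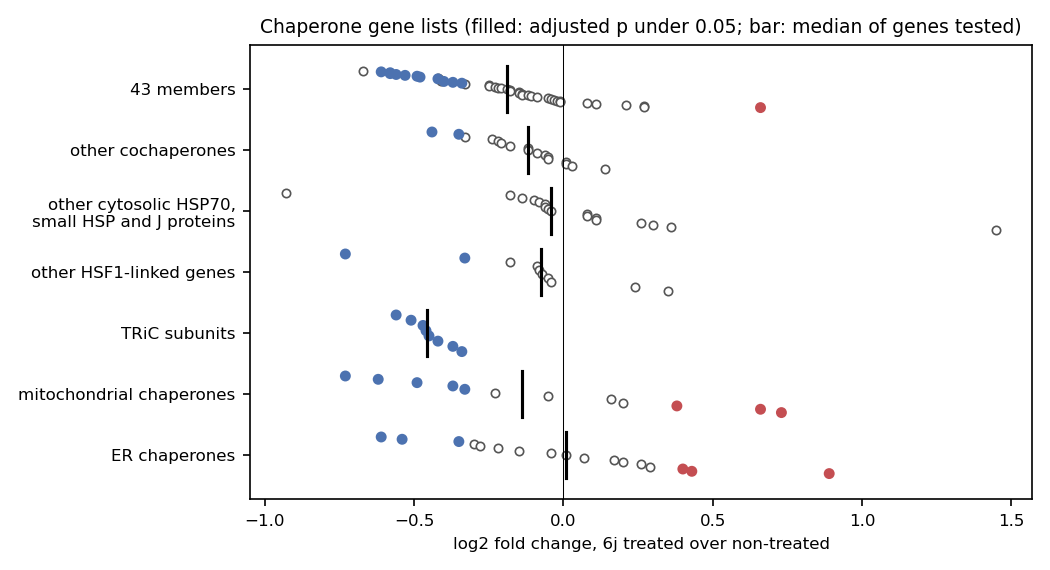
Log2 fold change (x axis, 6j treated over non-treated cells) of each tested gene on 7 chaperone lists (rows). Filled points passed edgeR's test, blue lower and red higher, open points did not, and the black bar is the median of the list, from −0.45 for the TRiC subunits to 0.01 for the chaperones of the endoplasmic reticulum.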

How the data were processed

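RNA-seq had been performed on oligo(dT) selected mRNA of 6 libraries of MHCC-97H cells, 3 treated with 6j and 3 with solvent. The table deposited by the authors holds raw counts, as whole numbers, with 1 row per gene and 1 column for each library. The submitters' processing notes name HISAT2, StringTie and GRCh38, without versions or roles. The annotation and the strand setting are not given in the sources used here. New genes assembled by the authors took 5471 of the 25445 rows, and the other 19974, named by Ensembl identifiers, were all matched to GENCODE version 29 for coordinates and exon lengths. No column was left out.

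The 43 symbols were read from the whole table. HSPA14 was taken as the row ENSG00000187522. Rows with low counts were removed by filterByExpr of edgeR 4.0.16 (minimum count 10, minimum total 15), libraries were scaled by TMM, and the quasi-likelihood model was fitted with robust estimation and no covariate, in R 4.3.3 with limma 3.58.1. The study's methods name DESeq2, and DESeq2 1.42.0 was an alternative here. Thresholds were a Benjamini-Hochberg adjusted p-value under 0.05 over 15957 rows, and a fold change above 1.5 for DEGs. Standard errors and 95% intervals came from the F statistic. Ratios were taken on log2 CPM with a prior count of 2, and their exact permutation tests were run in scipy 1.17.1 under Python 3.11.15. The total count per library, 31533403 to 38018349, sets the precision. Levels per kilobase used the union of exons, and shared sequence was counted in 75-base windows of the longest transcript. The fits were tested on simulated counts with known changes before use.

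Libraries were grouped by their treatment label. Same-numbered libraries of the groups had correlated deviations from their group means (0.171, 0.18 and 0.312 over 15957 rows, against −0.231 to 0.0795 for different numbers), and so the numbers were taken to pair the libraries, although no label says what a number marks. Fits with the replicate block were made beside the main ones. Other alternatives were other scalings and filters, DESeq2, other thresholds, HSPA1A and HSPA1B summed, Ensembl rows only and leaving out each library.

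All members were counted by class. Values in every library are given for those past the threshold with or without the block and for a fixed set of well-known members, and genes of other lists are named where they passed, at most 5 per list. HSPA6 is given in any case. Marker genes of other cell types, genes of other lists that passed only with the block, and HSPB8, HSPA5, HSPA9 and HSP90B1 fall outside this rule and were chosen after their values were seen. The members and lists were chosen with earlier results of these data known. The text gives no test of a list.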

Additional observations from a re-analysis of the deposited data

How the results depend on the processing

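The numbers of members that fell (11) and rose (1) were within 1.5 times under the other scalings, filters and DESeq2 without a block, with 9 to 14 lower and 1 higher (9 with library totals alone, 14 with DESeq2, which added HSPA1A, HSPA1B and FKBP5). With the replicate block, which takes the libraries to be paired by number, 19 fell and 4 rose, and in DESeq2 with the block 17 fell and 2 rose. The block left no member that passed without it below the threshold. At an adjusted p under 0.1, 2 were higher. Lower DEGs numbered 11 at a fold change above 1.2. Leaving out 1 library gave 1 to 9 lower and 0 to 1 higher members, 0 to 5 lower and 0 to 1 higher DEGs, and medians of −0.17 to −0.02 for the BAG proteins, −0.32 to −0.23 for the cochaperones and 0.01 to 0.15 for the heat shock factors. The lowest count came without non-treated replicate 1 (1) and the next without 6j replicate 2 (3), and the cause was not tested. The change in the log2 ratio of HSP90AA1 to HSP90AB1 turned from 0.00 to −0.02 without non-treated replicate 1 or 6j replicate 2, and ranged up to 0.03 without non-treated replicate 3. That of DNAJB1 to DNAJB6 turned to 0.12 without non-treated replicate 2 and 0.07 without 6j replicate 3, and was −0.08 at its lowest. Single genes with a log2 fold change near 0 changed sign in 17 values, all but 4 of them with 1 library left out. DNAJB1 and DNAJB6 were at 0.01 with library totals alone and with Ensembl rows only. With 1 library left out, the ranges were −0.32 to 0.04 for HSPB8, −0.07 to 0.06 for DNAJB1, −0.06 to 0.07 for DNAJB6, −0.11 to 0.05 for HSPA4L and BAG4, −0.05 to 0.04 for ST13, −0.17 to 0.02 for PTGES3 and −0.08 to 0.02 for DNAJC2. Of all values of single genes under the alternatives, 673 kept direction and side of the threshold, 21 passed only under the alternative and 36 lost their call. With 3 libraries per group, the standard error differed between genes with changes of similar size. It was 0.14 for HSPA1A (−0.41) and 0.08 for BAG3 (−0.42).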

Other observations

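Genes for mitochondrial protein folding and degradation moved in opposite directions. LONP1, the protease that degrades damaged proteins of the matrix, rose from 220.0 to 365 CPM (means, n = 3 each), with a log2 fold change of 0.73 and an adjusted p of 0.00292. GRPEL2, a nucleotide exchange factor of the mitochondrial HSP70, rose by 0.66 (adjusted p = 0.00559). HSPE1, the cochaperonin of HSPD1, fell from 144 to 86.9 CPM, a log2 fold change of −0.73 (adjusted p = 0.0036). CLPB, a disaggregase, fell as well (−0.49, adjusted p = 0.0122). LONP1, GRPEL2 and HSPE1 were called whichever library was left out, and CLPB in 4 of these 6 fits.

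In the endoplasmic reticulum, the J protein genes DNAJB9 (log2 fold change 0.89, adjusted p = 0.0194) and DNAJC3 (0.43, adjusted p = 0.0374) rose together with HSPA5. SDF2L1 (−0.61, adjusted p = 0.00723), CRELD2 (−0.54, adjusted p = 0.0198) and MANF (−0.35, adjusted p = 0.0374), which are also known from the unfolded protein response, fell. Each value is from edgeR's quasi-likelihood test over all rows. With 1 library left out at a time, SDF2L1 was called in all 6 fits and DNAJB9 in 4. CRELD2 was called in 3 of these fits, DNAJC3 in 2 and MANF in 1.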
